A study of Homo sapiens with 22 samples.

Results

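Estradiol (E2) was compared with its solvent DMSO in 3 clones of Ishikawa cells, a human endometrial adenocarcinoma line, in which estrogen receptor alpha (ESR1) carried both the D538G substitution and a FLAG tag. The data were lists of ESR1 binding sites from chromatin immunoprecipitation with sequencing (ChIP-seq) and an anti-FLAG antibody. The members were the 12 peak lists whose titles begin with the D538G clone name, out of 20 peak lists and 22 samples in the series. Each of clones 1, 2 and 3 gave 2 replicates of each treatment, so 6 E2 lists stood against 6 DMSO lists in 6 pairs matched on clone and replicate number. All 12 came from cells kept for at least 5 days in hormone-deprived medium without phenol red, and both treatments lasted 1 h, with 10 nM E2 or 0.1% DMSO. The DMSO cells therefore carried the mutant, tagged receptor too, and unligated wild-type receptor was not the control here. Each clone is a single derived line, and the labels do not say whether its replicates were separate cultures, so p-values measure the spread between these lists, which may be technical.

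ESR1 is a nuclear receptor that binds DNA at estrogen response elements, palindromes of a short half-site, and recruits coactivators when estradiol closes a helix over the ligand pocket. The D538G substitution lies beside that helix, recurs in hormone-treated breast cancer and in endometrial cancer, and is known to let the receptor act without ligand. The question addressed was how much the ligand changed the sites occupied by the mutant receptor, their strength and their width.

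Lists were compared as sites. Joining the 12 lists' peaks wherever they touched by 1 bp or more gave 91883 sites, of which 45741 had a peak in 2 or more lists. The strength of a site in a list was its rank by the authors' signal value, from 1 for the strongest, because the scale of that value differs between lists. To remove the effect of list length, each list was cut to its 1524 strongest sites, the number in the shortest list, and this is called equal length below.

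The peak names of 1 list put its label in question, which bears on the pairs. The authors' peak names contain the word Ctl in 4 of the 12 lists, namely the DMSO replicate 1 lists of clones 1, 2 and 3 and the list labelled clone 2 E2 replicate 1. What Ctl stands for is not stated, and the names in the DMSO replicate 2 lists do not hold it. Whether labels were exchanged was not tested. That list shared 78.9% of its sites at equal length with the clone 2 DMSO replicate 2 list, its closest list, and 52.5% with its own DMSO partner. The clone 2 DMSO replicate 1 list was in turn closest to the clone 2 E2 replicate 2 list, with 70.5% shared. Most of the 12 lists were closest to a list of the other treatment, so this trait is not particular to clone 2. The clone 3 E2 replicate 2 list, for instance, was closest to the clone 2 DMSO replicate 2 list, with 69.7% shared. The labels were used as given, and values without the clone 2 replicate 1 pair are given beside the comparisons of width, sharing, presence, rank and locus sites.

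List length varied as widely within a treatment as between treatments. The 6 E2 lists held 12154, 6243, 20060, 1890, 19134 and 44811 sites, in the order clone 1 replicates 1 and 2, clone 2 replicates 1 and 2, and clone 3 replicates 1 and 2. In the same order, the 6 DMSO lists held 11994, 49007, 3874, 49444, 9244 and 1524 sites. The E2 list was the longer in 4 pairs and the DMSO list in 2, and the longer list of a pair was between 1.01 and 29.4 times the shorter. Read depth is not given in the files, so fewer bound sites and shallower or less enriched libraries cannot be told apart.

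**Figure D1:**
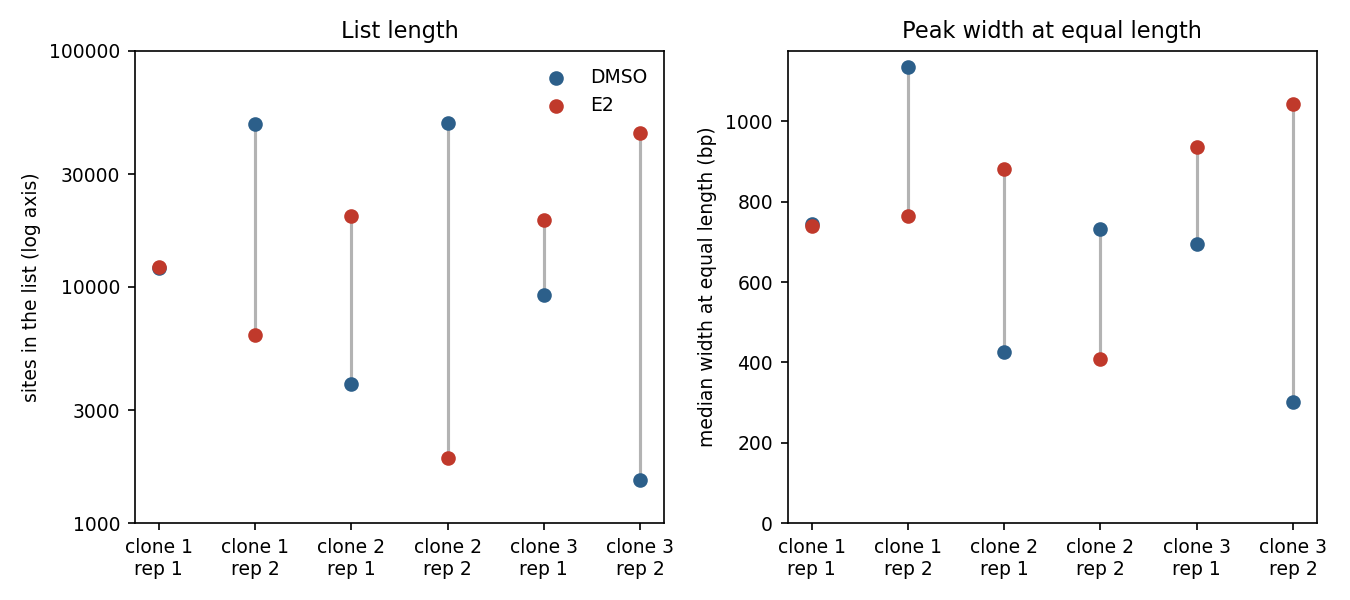
Number of sites in each list (left, log axis) and median peak width in bp among the 1524 strongest sites (right), for each clone and replicate; points are single lists, E2 in red and DMSO in blue, joined within a pair. The wider list of a pair was the longer one in 5 of the 6 pairs, and clone 1 replicate 1 had lists of nearly the same length and width.

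Widths were compared among the strongest sites. At equal length the median width under E2 was 739 bp, 763.5 bp, 881 bp, 408 bp, 935.5 bp and 1043.5 bp in the order above, and under DMSO it was 744 bp, 1134.5 bp, 425 bp, 731.5 bp, 694 bp and 302 bp. Peaks were wider under E2 in 3 pairs and narrower in 3. The mean log2 ratio of E2 to DMSO width was 0.31 ± 1.00 (SD, n = 6 pairs), with an exact two-sided sign-flip permutation p of 0.5 where 0.03125 is the smallest that 6 pairs allow. Without the clone 2 replicate 1 pair the mean was 0.16 (exact permutation p = 0.875). Without the clone 3 replicate 2 pair it was 0.012 at the same list length, and -0.010 (exact permutation p = 0.9375) when the length was reset to the shortest of the 10 lists kept. At sites with a peak in both lists of a pair the mean log2 ratio was 0.22 ± 0.86 (SD, n = 6, exact permutation p = 0.594), 0.088 without the clone 2 replicate 1 pair and -0.015 without the clone 3 replicate 2 pair. The width difference between ligand and solvent was therefore smaller than the spread between pairs.

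Sharing of sites between treatments was set beside sharing between replicates. At equal length an E2 list and its DMSO partner shared 60.3% and 40.2% of sites in clone 1, 52.5% and 40.7% in clone 2, and 67.9% and 46.1% in clone 3. Replicates of 1 treatment in 1 clone shared 77.4% (E2) and 62.4% (DMSO) in clone 1, 48.4% and 44.9% in clone 2, and 64.8% and 57.3% in clone 3. The mean for pairs minus the mean for replicates was -19.6 percentage points in clone 1, -0.033 in clone 2 and -4.07 in clone 3, or -7.91 ± 10.3 over clones (SD, n = 3), which was within the spread between clones. Without the clone 2 replicate 1 pair, and with it the contrast in clone 2, the mean was -11.8. With 3 clones no exact test can go below 0.25. Lists of 1 clone that differed in both treatment and replicate shared 61.4% on average over 6 list pairs, which was more than the 51.3% within pairs. Clone 2, with the label in question, held the highest of these values, at 78.9% and 70.5%. In clone 1 they were 43.4% and 56.7%, and in clone 3 53.0% and 65.9%, between the 2 within-pair values of the same clone. Clone 1 was the clone in which the 2 E2 lists were closest to each other, and in clone 2 the closest lists crossed the labels.

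**Figure D2:**
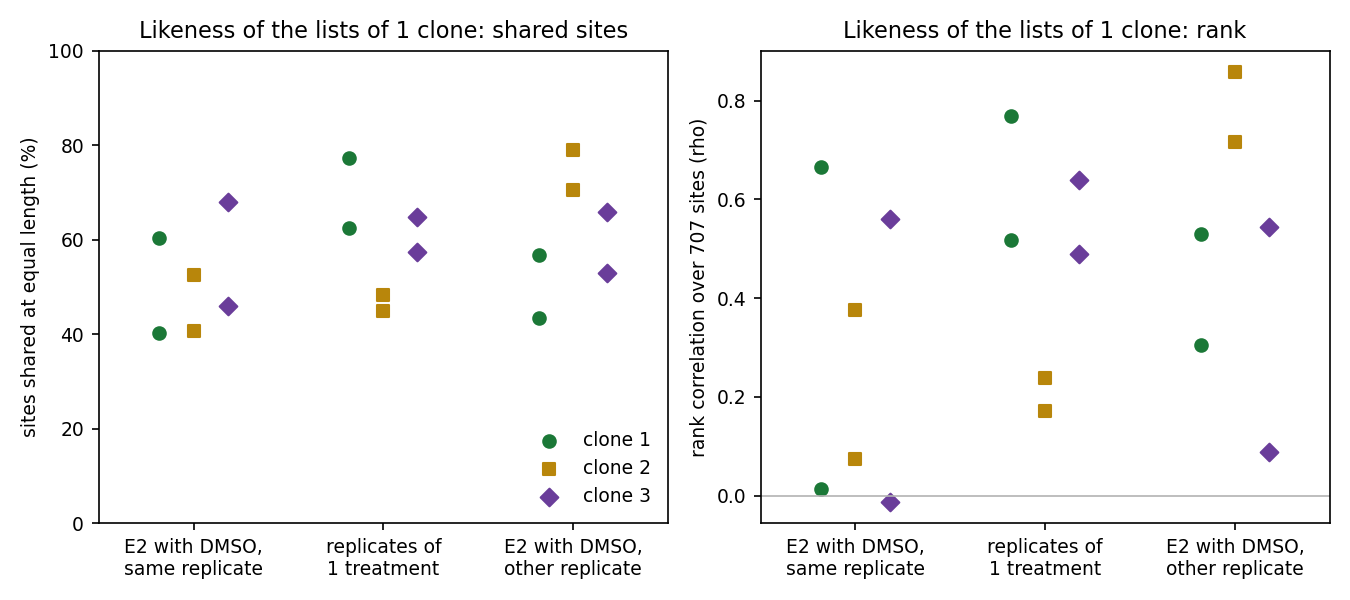
Likeness of lists within each clone, as the percentage of sites shared at equal length (left) and as Spearman's rho of signal ranks over the 707 sites present in all 12 lists (right); each point is 1 pair of lists, and symbols mark clones. In clone 2 the E2 and DMSO lists of different replicate number lie above all other pairs of that clone, at 78.9% and 70.5%.

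Over all 12 lists, the list that shared most sites had the same treatment for 4 lists and the other treatment for 8. Likeness went with list length: over the 66 pairs of lists, the shared percentage and the log ratio of the list lengths had a Spearman's rho of -0.63, a description in which each list enters 11 times. Whole lists held more of the strongest sites of the other treatment. The share of the E2 list's 1524 strongest sites with a peak in the whole DMSO list was 90.1%, 95.5%, 85.3%, 60.3%, 96.8% and 46.1% in pair order. Of the strongest DMSO sites, 95.9%, 90.8%, 96.5%, 48.3%, 100% and 76.4% were in the whole E2 list. In clone 3 replicate 1, where E2 gave the longer list, every one of the strongest DMSO sites had an E2 peak.

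Sites at equal length were counted for each treatment. At that length 4240 sites entered at least 1 list, 267 entered all 12, and 3002 entered 2 or more and were tested. Of these 3002 sites, 1044 were in more E2 lists, 886 in more DMSO lists and 1072 in as many of each. None passed Fisher's exact test (two-sided, Benjamini-Hochberg adjusted, a share of 0%), 1 passed an unadjusted p of 0.05 (0.0333% of those tested), and the smallest p this design allows is 0.00216. Only a site in all 6 lists of 1 treatment and 0 of the other reaches that p, and there were 0 such sites. With 3002 tests, many such sites would be needed before any could pass adjustment. The lack of calls was thus largely fixed by the design and does not measure the ligand effect. A sign-flip test of the pairs could not pass after adjustment at its smallest p of 0.03125 unless well over 1000 sites reached it, so it is not read here. Differences of 3 or more lists were about as frequent in each direction, at 108 sites for E2 and 116 for DMSO. Without the clone 2 replicate 1 pair, 0 of 2778 were called and 68 passed unadjusted. The smallest Fisher's exact p there was 0.00794, and the same limit on adjustment held.

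The sites furthest apart were few. At chr16:85321515-85323367 (GRCh37), all 6 E2 lists and 2 DMSO lists had the site among their strongest 1524, while 5 of the 6 whole DMSO lists had a peak there (Fisher's exact p = 0.0606). At chr3:102043087-102043891, 5 E2 lists and 1 DMSO list had it, and the whole DMSO lists added none. That DMSO list was clone 2 replicate 1, of the pair with the label in question. In the other direction, chr21:38918645-38919997 was in 1 E2 list and all 6 DMSO lists at equal length (exact p = 0.0152, adjusted p = 1), yet 5 whole E2 lists had a peak there. The 1 E2 list that had this site among its strongest was the one labelled clone 2 replicate 1. Of these 3 sites, the one on chromosome 3 was absent from most whole DMSO lists. The other two had lower-ranked peaks in all but 1 of the lists that lacked them at equal length.

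Rank was compared at the 707 sites with a peak in all 12 lists. This is a small part of the 91883 sites, limited by the shortest list of 1524. Sites gained or lost with the ligand are not covered. Ranks within each list were turned into normal scores, so a difference of 1 is a shift by 1 SD of the rank distribution, and were fitted by limma with the pair as a block. No site passed an adjusted p of 0.05 (0% of 707), the smallest adjusted p was 0.999, and 3 sites passed unadjusted (0.424%), all higher under E2. By mean score difference, 313 sites were higher under E2 and 394 higher under DMSO. The 3 sites that ranked higher under E2 in all 6 pairs stood against 0 sites lower in all 6, and 254 sites were higher in exactly 3 pairs. The site with the smallest p, chr7:130582124-130583357, had a mean rank of 294.0 in the E2 lists and 530.5 in the DMSO lists (difference 1.20 ± 0.50, SE) and was higher under E2 in 4 of 6 pairs. At chr3:14297729-14298885 the E2 list ranked the site higher in 6 of 6 pairs, with a mean rank of 293.5 against 463.3 (difference 0.71 ± 0.34, SE). Leaving out the clone 2 replicate 1 pair left 0 of 721 sites called and 10 unadjusted.

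**Figure D3:**
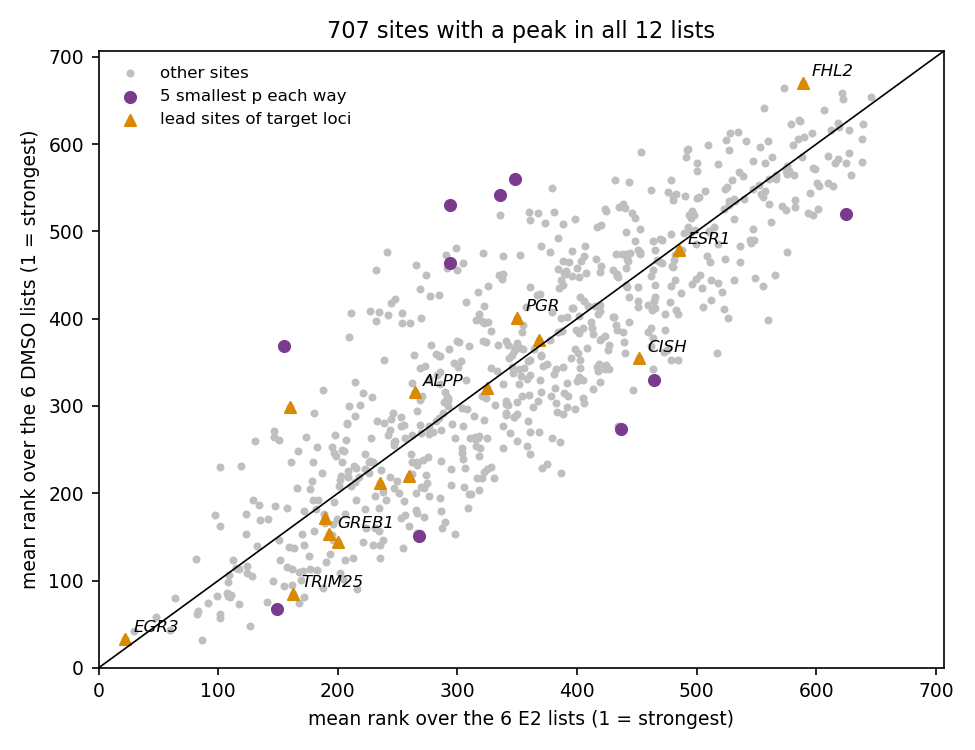
Mean rank over the 6 E2 lists (x) against mean rank over the 6 DMSO lists (y) for the 707 sites present in all 12 lists, 1 being the strongest; the line marks equal mean rank, and points above it ranked higher under E2. Triangles are lead sites of target loci, purple points are the 10 sites with the smallest p, and no site passed the adjusted threshold.

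Agreement of ranks varied between pairs. Over the common sites, Spearman's rho between E2 and DMSO was 0.67 and 0.014 in clone 1, 0.38 and 0.073 in clone 2, and 0.56 and -0.012 in clone 3, for replicates 1 and 2. The 3 values near 0 were all of replicate 2, whose lists differed in length by 7.85, 26.2 and 29.4 times. The mean rho for pairs minus that for replicates of 1 treatment was -0.304 in clone 1, 0.020 in clone 2 and -0.290 in clone 3. Over clones it was -0.19 ± 0.18 (SD, n = 3), with no test made. Without the clone 2 replicate 1 pair, and with it the contrast in clone 2, it was -0.295. Summits, the peak positions with the most signal, lay close together even so, with a median distance of 32 to 44 bp between E2 and DMSO at sites in both lists of a pair. At the common sites, summit distance within pairs exceeded that between replicates by 2.33 ± 1.89 bp (SD, n = 3 clones), and by 3.0 bp without the clone 2 replicate 1 pair.

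An added restriction to pairs of like length, chosen after the data were examined, gave calls that the 6 pairs did not. Only the clone 1 and clone 3 replicate 1 pairs differ in length by under 3 times, and in these 4 lists 4283 sites had a peak in every list. Limma called 194 of them (4.53%), of which 143 were higher under E2 (3.34%) and 51 lower (1.19%), with 1 residual degree of freedom per site and the variance shared across sites. The strongest call, chr12:4387096-4388145, ranked 1423.5 and 682 of 4283 under E2 and 4280 and 4184.5 under DMSO, in clones 1 and 3 (adjusted p = 0.00144, limma). The strongest in the other direction, chr12:65562907-65564457, ranked 3505 and 4233 under E2 and 647 and 1141 under DMSO (adjusted p = 0.00886, limma). When sites were merged from these 4 lists alone, 381 of 4344 were called, so the count depends on how sites are drawn.

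The same sites in the 4 pairs left out of that fit did not share one sign. In clone 1 replicate 2, 116 of the 126 called sites with a peak in both lists had the same sign (92.1%, against 60.1% of the uncalled sites), and in clone 2 replicate 2, 11 of 15 had it (73.3% against 58.3%). In clone 2 replicate 1, 27 of 137 had the same sign (19.7% against 36.3%), and in clone 3 replicate 2, 7 of 31 (22.6% against 44.8%). By direction, the sites called higher kept their sign at 111 of 116, 14 of 109, 4 of 6 and 2 of 24, in clone 1 replicate 2, clone 2 replicates 1 and 2, and clone 3 replicate 2. Those called lower kept it at 5 of 10, 13 of 28, 7 of 9 and 5 of 7. The high share in clone 1 replicate 2 thus came from sites called higher. The E2 list of the clone 2 replicate 1 pair is the one whose peak names hold Ctl. No replicate 2 list of any clone or treatment holds Ctl in its names. Its absence from the clone 3 replicate 2 pair therefore says nothing of the labels of that pair. None of the 4 pairs shares a list with the fit, and the clone 1 and clone 3 pairs share its clones. No test was made, and the cause was not tested.

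Known estrogen target loci were then read. A set of 32 loci was used, each the gene span in GRCh37 with 50 kb on both sides, in which 544 sites lay. The numbers of these locus sites among the 1524 strongest were 31, 34, 31, 34, 38 and 28 in the E2 lists and 30, 30, 29, 31, 33 and 32 in the DMSO lists, in pair order. The E2 list had more in 5 of 6 pairs, by 1.83 ± 3.19 on average (SD, n = 6; 1.8 without the clone 2 replicate 1 pair), which is within the spread between pairs. The lead site of a locus was the site in its window present in most of the 12 lists, and 15 of the 32 lead sites were present in all 12. Percentiles of lead sites below were taken in whole lists, so they depend on list length.

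**Figure D4:**
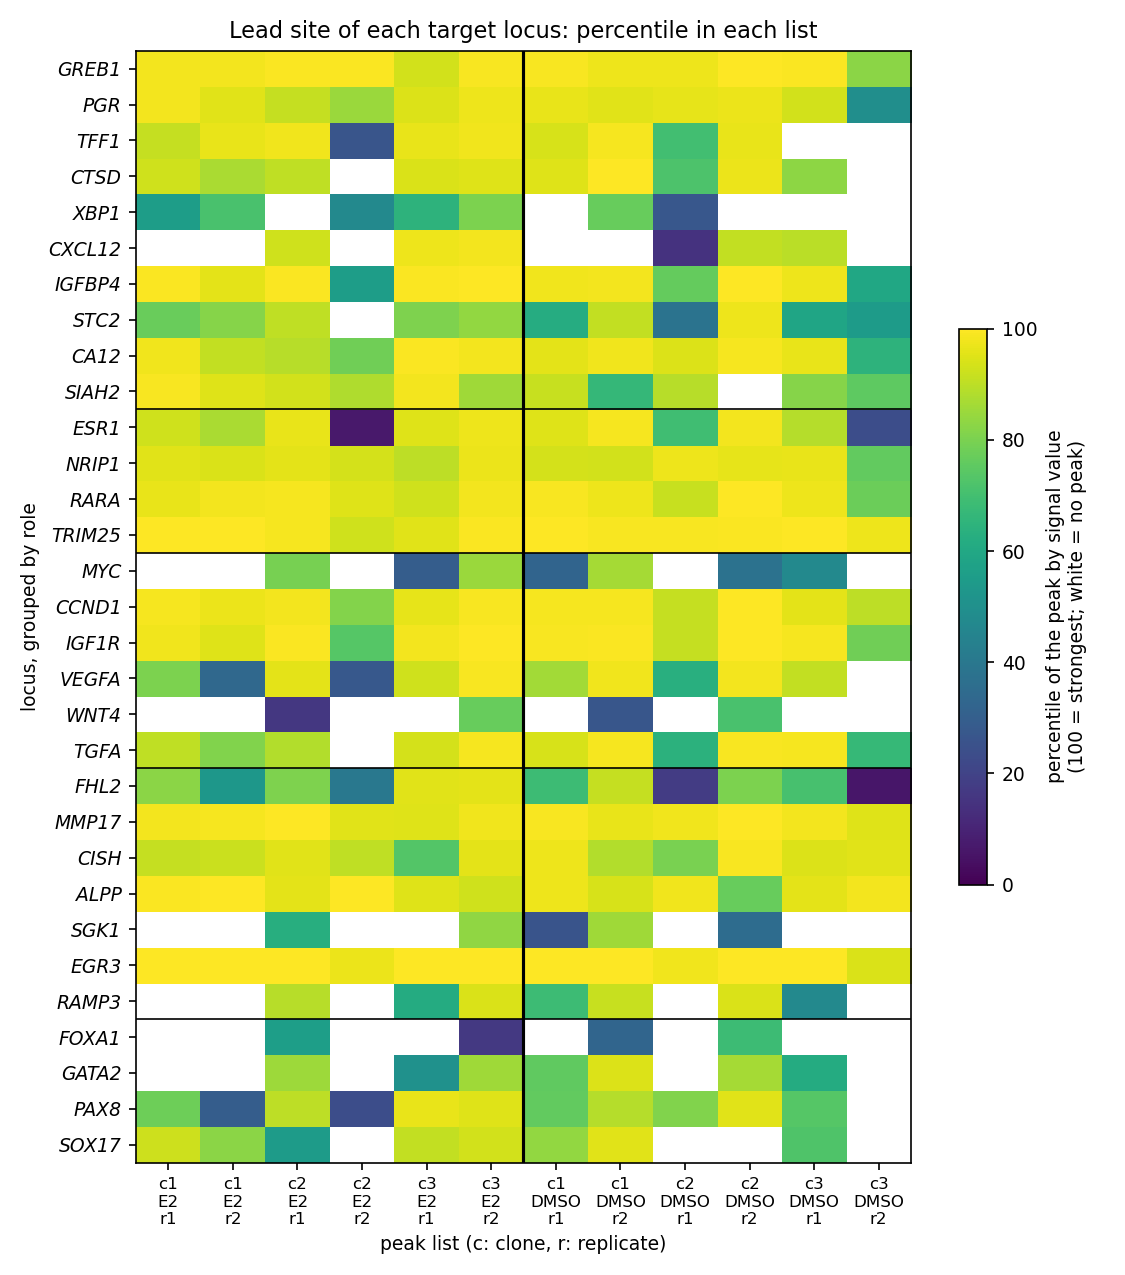
Percentile by signal value of the lead site of each of 31 of the 32 target loci (rows, grouped by role) in the 12 lists (columns, E2 left and DMSO right of the line); 100 is the strongest site of a list and white is no peak. EGR3, TRIM25 and GREB1 were high on both sides, whereas XBP1 had a peak in 5 E2 lists and 2 DMSO lists. Percentiles were taken in whole lists, which differ in length.

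Among classical targets, GREB1, a growth-regulating estrogen-induced gene, held 27 locus sites summed over the E2 lists and 27 over the DMSO lists at equal length. Its lead site, chr2:11655122-11656498, upstream of the gene start used here, lay between percentiles 93.2 and 99.4 in the E2 lists with a median of 98.6. In the DMSO lists it lay between 82.5 and 99.8 with a median of 98.3. The GREB1 span used here and that of GRCh38.p14 differed in length, at a ratio of 1.47, so the site may lie inside the annotated gene. The 2 groups overlapped over nearly their whole range. PGR, the progesterone receptor, had a lead site inside the gene, chr11:100904485-100905500, with medians of 95.0 under E2 and 95.8 under DMSO. TFF1, a secreted trefoil peptide widely used as an estrogen readout, had its lead site at chr21:43796070-43797138 upstream of the gene in 6 E2 lists and 4 DMSO lists, and in the strongest 1524 of 6 and 3 (exact p = 0.182, adjusted p = 1, Fisher). XBP1, a stress-response transcription factor, had its lead site in 5 E2 lists and 2 DMSO lists and among the strongest of 1 list. SIAH2, a ubiquitin ligase, had medians of 94.2 and 82.0, with ranges of 85.7 to 99.1 and 66.7 to 91.6 that overlapped. List length enters these values. In clone 3 replicate 2 the SIAH2 site had rank 377 of 1524 under DMSO, percentile 75.3, and rank 6427 of 44811 under E2, percentile 85.7. IGFBP4, which binds insulin-like growth factors, had a lead site with a mean rank of 159.7 under E2 and 298.8 under DMSO among the common sites (difference 0.67 ± 0.43, SE, adjusted p = 0.999, limma). The carbonic anhydrase CA12 had 324.6 and 321.0. The chemokine CXCL12 had its lead site in 3 lists of each treatment, STC2, a secreted glycoprotein hormone, in 5 E2 lists and 6 DMSO lists, and the lysosomal protease CTSD in 5 of each.

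Of the receptor's own locus and its coregulators, all 4 had a common site. ESR1 itself had its lead site at chr6:152001698-152003164, with a mean rank of 485.3 under E2 and 478.4 under DMSO. NRIP1, a corepressor of the receptor, had 368.1 and 375.2. RARA, a retinoic acid receptor, had 259.4 and 219.7. TRIM25, an estrogen-induced ubiquitin ligase, ranked 162.6 under E2 and 84.9 under DMSO (difference -0.41 ± 0.46, SE). These differences were within their errors in both directions.

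Growth and endometrial loci gave the strongest site. EGR3, an early growth response transcription factor, had its lead site 44.1 kb upstream of the gene at chr8:22594910-22597584, and by mean rank it was the strongest of the 707 common sites. It ranked 3, 9, 61, 47, 1.5 and 12.5 in the E2 lists and 5, 3, 67, 43, 2 and 80 in the DMSO lists, with a difference of 0.13 ± 0.35 (SE). All 4 clone 2 lists placed it between 43 and 67, and the other lists between 1.5 and 12.5 except the clone 3 DMSO replicate 2 list, so the treatments overlapped. ALPP, an alkaline phosphatase of placenta, had 12 locus sites among the strongest under E2 and 13 under DMSO. MMP17, a membrane-bound metalloproteinase, had 21 and 16, and CCND1, the cyclin of early G1, had 6 and 7. The insulin-like growth factor receptor IGF1R had 6 and 6, the angiogenic factor VEGFA had 5 and 5, and FHL2, a LIM-domain cofactor, had 4 and 4. MYC, SGK1, WNT4 and RAMP3 had no site among the strongest 1524 of any list. TGFA, a ligand of the epidermal growth factor receptor, had 5 locus sites among the strongest under E2 and 10 under DMSO. CISH, a suppressor of cytokine signaling, had 9 and 14.

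The partner factors, transcription factors that open chromatin for the receptor or mark the Müllerian lineage, seldom had strong sites. FOXA1, a pioneer factor, and GATA2, a zinc-finger factor, had no site among the strongest 1524 of any list. The lead site of FOXA1 had a peak in 2 lists of each treatment, and that of GATA2 in 3 E2 lists and 4 DMSO lists. PAX8, a paired-box factor of the female tract, had its lead site in 6 E2 lists and 5 DMSO lists, with median percentiles of 84.1 and 81.1. SOX17, a uterine epithelial factor, had its lead site at chr8:55365242-55367638, 2.86 kb upstream of the gene, in 5 E2 lists and 3 DMSO lists and among the strongest of 2 and 0 (exact p = 0.455, adjusted p = 1, Fisher).

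Over all 32 loci, no site passed the unadjusted threshold in the rank test, where 23 were tested and 9 ranked higher and 14 lower under E2, or in the presence test, where 52 were tested. Over all sites, 3 of 707 passed by rank (0.424%), with 313 higher and 394 lower, and 1 of 3002 by presence (0.0333%). At such shares, a lack of passing sites among so few says nothing particular about the target loci.

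In the fit on the 2 pairs of like length, 57 locus sites were tested and 2 were called (3.51%, against 4.53% of all sites). A site in the GREB1 window, chr2:11638027-11639709, was lower under E2 (difference -1.54 ± 0.40, SE, adjusted p = 0.0439, limma). It ranked 1863 and 3811 under E2 and 552 and 809 under DMSO. Over all 6 pairs its difference was -0.51 ± 0.54 (SE, adjusted p = 0.999, limma), and it ranked higher under E2 in 3 of the 4 pairs outside that fit, for instance 150 against 404 of the 707 common sites in clone 2 replicate 2. A site in the TRIM25 window, chr17:54970331-54971539, was higher under E2 (1.45 ± 0.38, SE, adjusted p = 0.0439, limma), with ranks of 2659.5 and 3027.5 against 3953 and 4241. Of the other 4 pairs, clone 1 replicate 2 alone had a peak there in both lists, at rank 4681 of 6243 sites under E2 and 2049 of 49007 under DMSO, the opposite direction. In clone 2 replicate 1 and clone 3 replicate 2 only the E2 list had a peak, at ranks 9161 of 20060 and 4891 of 44811. Those E2 lists were the longer of their pairs. In clone 2 replicate 2 neither list had it.

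Sites over gene starts were tallied as well. Of the 32 loci, 21 had a site over the annotated start, present in a median of 6 lists. Lead sites, which were chosen for their presence in most lists, had a median of 11 lists and lay a median of 19.6 kb from the start. The start site was in more DMSO than E2 lists at 13 loci, in as many of each at 8, and in more E2 lists at 0. This tally was made after the data were examined, on whole lists of unequal length and with no share over all sites beside it. The loci are not independent, because a list tended to hold many or few of them together. The number of start sites with a peak was 3, 3, 18, 0, 12 and 21 in the E2 lists and 17, 21, 3, 20, 9 and 2 in the DMSO lists, in pair order. In clone 1 replicate 1, where the lists had nearly the same length, E2 had 3 and DMSO 17. E2 had more in clone 2 replicate 1 and in both pairs of clone 3. In the 5 pairs other than clone 1 replicate 1 the longer list had more start sites, so length and treatment cannot be told apart there.

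**Figure D5:**
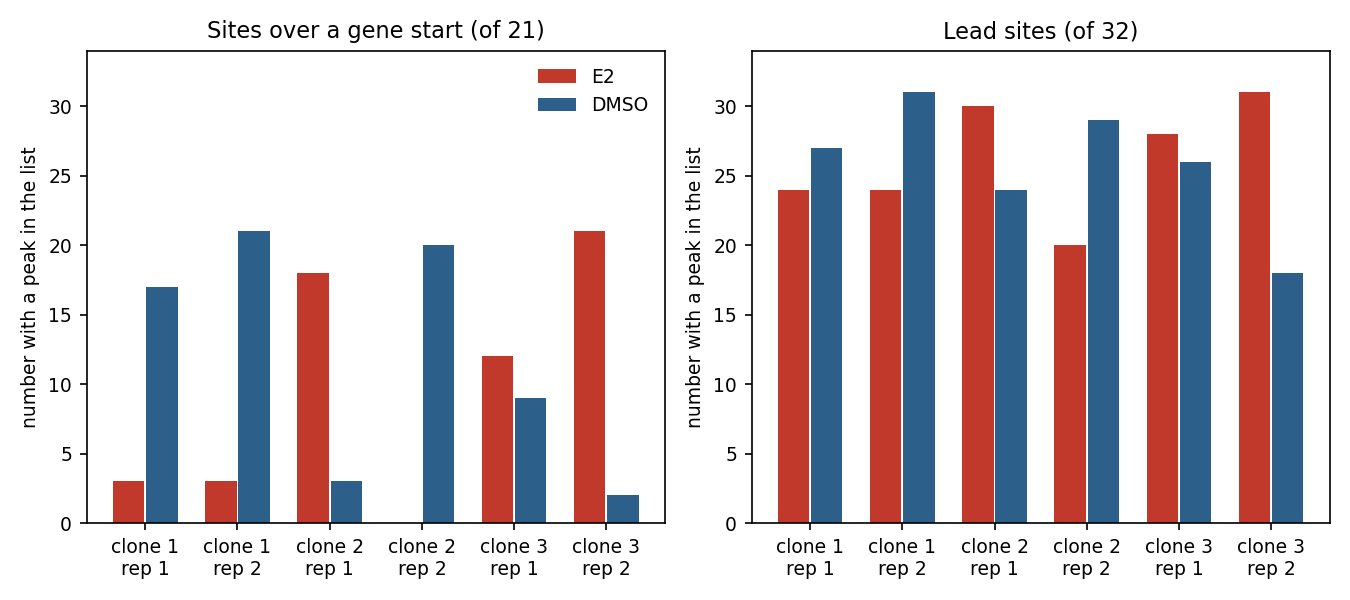
Number of the 21 sites over a gene start (left) and of the 32 lead sites (right) with a peak in each list; bars are single lists, E2 in red and DMSO in blue. Start sites ranged from 0 to 21 per list, and lead sites from 18 to 31.

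Only TGFA and CISH had a start site among the strongest 1524 of any list, in 1 E2 list and 4 DMSO lists each, and that E2 list was not the same one. The TGFA start site, chr2:70779716-70781949, ranked 7009, 3417, 2085, 3164 and 1197 in the 5 E2 lists that held it and 2926, 953, 3199, 1362, 1451 and 1247 in the 6 DMSO lists. The CISH start site, chr3:50648390-50650075, ranked 5930, 5274, 1146, 5627 and 1746 in the E2 lists and 1418, 430, 3200, 1061, 2493 and 1199 in the DMSO lists. Both were absent from the clone 2 E2 replicate 2 list, and their E2 and DMSO ranks overlapped. In clone 1, the DMSO list ranked both sites higher than its E2 partner in both replicates.

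The promoters of these genes are shown because their start sites were the ones that entered the strongest 1524 of a list, with any half-site of the estrogen response element in capitals. They are RefSeq sequences of GRCh38.p14, a build other than that of the peaks, from 250 bases before to 50 after the gene's start, and were matched by symbol. The TGFA promoter is chr2:70553777-70554076 and the CISH promoter chr3:50611725-50612024 in that build, both on the minus strand.
TGFA: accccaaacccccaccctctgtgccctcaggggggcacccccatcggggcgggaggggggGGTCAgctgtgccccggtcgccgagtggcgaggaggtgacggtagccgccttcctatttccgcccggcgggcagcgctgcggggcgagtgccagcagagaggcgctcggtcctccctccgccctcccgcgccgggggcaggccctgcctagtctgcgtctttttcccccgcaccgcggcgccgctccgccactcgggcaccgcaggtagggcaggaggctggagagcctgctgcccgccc
CISH: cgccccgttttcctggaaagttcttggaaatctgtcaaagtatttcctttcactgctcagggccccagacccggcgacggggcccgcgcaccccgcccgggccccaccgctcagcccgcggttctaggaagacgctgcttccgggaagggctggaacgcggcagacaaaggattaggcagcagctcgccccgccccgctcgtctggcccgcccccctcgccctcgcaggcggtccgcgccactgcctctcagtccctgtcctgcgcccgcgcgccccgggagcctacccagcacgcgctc
The half-site GGTCA, or TGACC on the other strand, occurs 1 time in the TGFA window and 0 times in the CISH window, and 37.4% of 35116 promoters of that length hold it. The full palindrome GGTCANNNTGACC occurs in 20 of the 35116 (0.0570%) and in none of the 23 loci that have a promoter entry. The window ends at these letters and says nothing of the rest of the peak.

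The wild-type clones of the series gave 4 pairs against which the likeness of E2 and DMSO lists could be set. With each list cut to its 40 strongest sites, the number in the shortest list of the series, E2 and DMSO shared 20.4% ± 11 (SD, n = 6 pairs) in the D538G clones and 13.8% ± 5.95 (SD, n = 4) in the wild-type clones. The difference of 6.67 percentage points was smaller than the spread (exact two-sided permutation p = 0.338), and was 6.25 without the clone 2 replicate 1 pair. It turned to -5.21 when sites were ranked by the −log10 p and to -3.33 with replicate 2 only. At the 1000 strongest sites it was 23.6, but there a single wild-type pair had lists that long. The permutation treated pairs as separate, although they came from 3 D538G and 2 wild-type clones. Its p therefore does not measure the spread between clones.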

How the data were processed

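ChIP-seq peak lists of 12 D538G and 8 wild-type libraries were used, and inputs were not used here. Peaks were deposited per library in narrowPeak layout. The deposited signal (column 7) and −log10 p (column 8) are the authors' values, and every −log10 p was above 10. Per the submitters' processing notes, Bowtie, MACS2 and hg19 were used; versions, depth and what signal is relative to are not given in the sources used here. Signal was used only as a rank within a list. The 5 mitochondrial peaks were set aside. Merging was checked with bedtools 2.31.1. Ranks were fitted with limma 3.58.1 (R 4.3.3), presence with Fisher's exact test, both Benjamini-Hochberg adjusted at 0.05, and widths by sign-flip permutation; scripts were tested on simulated data. Pairing by clone and replicate number is the block. Gene spans in GRCh37 came from general knowledge. Chromosomes matched RefSeq GRCh38.p14 for 32 of 32, and span lengths were within 10% for 29, all but GREB1, MYC and ESR1. One locus is counted in the totals and not reported here by itself. Members, loci and tests were chosen with earlier results of these data known. Named sites were the lead site per locus, the 5 smallest limma p each way and up to 5 sites each way by the difference in number of lists. Alternatives were the ranking column, stricter peaks, site definition, list length, locus window, block and leaving out pairs.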

Additional observations from a re-analysis of the deposited data

Results flagged for a closer look

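The D538G lists held 5 peaks on the mitochondrial sequence, which no comparison used, in 3 lists: 1 in clone 1 E2 replicate 2, 2 in clone 2 E2 replicate 2 and 2 in clone 3 DMSO replicate 2. They are flagged because they are a signal outside the main measurement. These are the clone 1 E2 list with fewer sites and the 2 shortest lists of the 12.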

How the results depend on the processing

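Of 153 recomputed values for 9 results, 146 kept their direction and side of the threshold. For values with no test, this means that they moved by less than the spread between pairs or clones. Such values could still differ several-fold. The 146 include 21 presence counts of 0, which the design largely fixed. Where pairs were left out, lists were also reset to the shortest list kept, so both choices changed; values at the unchanged length, computed after the data were seen, follow where they differ. The difference in within-pair overlap between D538G and wild type turned to -5.21 percentage points by the −log10 p ranking and to -5.63 with replicate 2 only (-3.33 at 40 sites), and was 23.6 at the 1000 strongest sites, with 1 wild-type pair. Leaving out each pair in turn, the mean log2 width ratio ranged from -0.010 to 0.54 at equal length and from -0.015 to 0.42 at shared sites, the lowest being without clone 3 replicate 2 (0.012 at equal length with 1524 sites kept). Locus sites differed by 7.0 with replicate 1 only (2.67 at 1524 sites). Sites with a shifted rank numbered 194 with the pairs of like length and 381 when sites were merged from those lists only, against 0 in the other alternatives, where up to 58 passed unadjusted. The overlap difference between pairs and replicates ranged from -11.8 to -2.05 when pairs were left out. Width at shared sites was 0.0058 with replicate 2 only. The sign-flip test with the replicate block called 0 sites, as its smallest p of 0.03125 largely fixes. Without the replicate block (unpaired), rank calls were 0 with 6 unadjusted, and the width p was 0.368 by exact permutation. One further exclusion was tried and not used, because 1 of its 2 pairs was picked by how its lists had clustered; it gave calls too, and the restriction to pairs of like length was set after it had been seen. Leaving out clone 2, also chosen after seeing the data, called 0 of 1043 sites. The causes were not tested. Unknown depth limits all of these.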
